A study of Rattus norvegicus with 20 samples.

Results

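Imprinted growth genes were followed across the femurs of 4 rat strains, with Mest, a gene of the chromosome 4 quantitative trait locus (QTL) segment, at the centre. The set held 9 genes: Mest, Copg2, Peg3, Dlk1, Plagl1, Grb10, Cdkn1c, Sgce and Peg10. Every probe set annotated with exactly 1 of these symbols was taken, which gave 11 of the 31042 non-control probe sets on the array and covered 8 of the 9 genes. No probe set carried the symbol Peg3. The signal of Mest was already known to differ between strains that differ in the segment, so those differences are described below without a test.

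The arrays measured RNA from the femur (proximal femur in the sample labels) of 4-week-old rats, with 5 animals and 5 arrays per strain. NP.P rats are congenic and carry the QTL segment of chromosome 4 from the inbred alcohol-preferring P strain on the genetic background of the inbred alcohol-nonpreferring NP strain. P.NP rats are the reciprocal congenic strain, with the NP segment on the P background. P and NP rats are the inbred parents. Each congenic strain is 1 line made by repeated backcrossing, selected by markers and bred to homozygosity, and none of the animals in the set was described as treated. The RNA came from whole bone, so marrow and any attached tissue contributed, and in such bulk RNA fewer cells of a type and less RNA per cell cannot be told apart.

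Imprinted genes are expressed mainly or only from the copy inherited from 1 parent, and many of them act on fetal and early postnatal growth. Paternally expressed members tend to promote growth and maternally expressed members tend to restrain it. The expressed copy is usually set by DNA methylation at CpG-rich control regions, laid down in the germ line of 1 parent. Several of these genes are highly expressed in young growing tissues and decline with age. Because both parental copies are identical within an inbred or homozygous congenic animal, the arrays gave the summed signal of both copies and could not assign it to a parent.

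Mest and Copg2 lie next to each other in the QTL segment, and their start regions are shown because the signals of these neighbours are set side by side below. The sequences come from RefSeq (GRCr8) and run 5′ to 3′ along each gene's own strand, from 250 bases before to 50 bases after the annotated start, with every CG dinucleotide in capitals. Mest is at chr4:60321564-60321863 on the plus strand and Copg2 at chr4:60468904-60469203 on the minus strand.
Mest: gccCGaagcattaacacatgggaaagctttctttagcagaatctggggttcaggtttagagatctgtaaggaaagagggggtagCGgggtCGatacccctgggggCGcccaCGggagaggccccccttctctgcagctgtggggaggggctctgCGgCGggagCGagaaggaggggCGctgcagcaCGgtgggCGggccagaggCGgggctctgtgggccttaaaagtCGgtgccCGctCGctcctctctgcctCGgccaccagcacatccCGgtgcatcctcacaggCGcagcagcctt
Copg2: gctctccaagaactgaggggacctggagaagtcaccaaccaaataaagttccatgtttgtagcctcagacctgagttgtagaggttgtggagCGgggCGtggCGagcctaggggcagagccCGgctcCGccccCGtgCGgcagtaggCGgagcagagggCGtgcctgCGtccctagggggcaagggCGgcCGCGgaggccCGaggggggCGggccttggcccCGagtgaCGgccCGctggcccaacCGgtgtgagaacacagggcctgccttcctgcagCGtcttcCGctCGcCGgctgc
The motif CG reads the same on both strands. The Mest window held 18 CG, and 27.5% of the 33469 windows in the table held as many or more. The Copg2 window held 23 CG, with 19.5% of windows at that number or above, and the median window held 7. Among the other members in the table, Dlk1 had 45 CG (1.66% of windows had as many), Grb10 44 (1.89%), Plagl1 29 (11.5%), Sgce 23 (19.5%), Peg10 22 (21.0%) and Peg3 16 (30.5%). All 8 windows thus lay above the median, but those of Mest and Peg3 were common in this respect. Sgce and Peg10 are annotated on opposite strands with 118 bases between the genes, and the windows in the table shared 263 of their 300 bases. Methylation was not measured in these samples.

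Signals are linear MAS5 expression values scaled by the authors, and differences are in log2 units from 1 limma fit over all 20 arrays. Among the 31042 probe sets, 18625 passed the filter on low signal and were tested, and a call means an adjusted p under 10% over all of these. Of the 11 member probe sets, 8 passed, which stand for 7 genes. The 3 that did not were the only Peg10 probe set and the dimmest ones of Copg2 and Grb10. Median signals of the 20 arrays lay between 291.9 and 322.3, and pairs of arrays correlated at 0.9193 to 0.9391 over the log2 signals of all 31042 probe sets. Of the 12 listed osteoblast markers, 10 were measured and all 10 passed the filter, with a summed signal of 311200 to 411700 per array. P replicate 2 stood apart in cartilage markers, with a mean log2 score of -1.76 against -0.67 to 0.46 on the other 19 arrays. The next lowest scores were those of NP replicate 2 (-0.67) and P.NP replicate 2 (-0.46), each the lowest of its strain. Leaving P replicate 2 out changed no call among the members.

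Mest, also known as Peg1, encodes a protein of the alpha/beta-hydrolase fold. It is expressed from the paternal copy, and in mice it promotes fetal growth and the enlargement of fat cells. In NP.P femurs its signal was 5046, 5860, 4914, 4743 and 4836. In P.NP femurs it was 3596, 3519, 3492, 3661 and 3812, and in P femurs it was 3948, 4529, 4218, 4102 and 4079. In NP femurs it was 3482, 3624, 3720, 3501 and 3637. Thus all 5 NP.P animals lay above all others, the 5 P animals came next, and the P.NP and NP animals lay together at the bottom with overlapping values. Both strains that carry the P segment were above both strains that carry the NP segment, with no overlap among the 10 and 10 arrays.

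**Figure D1:**
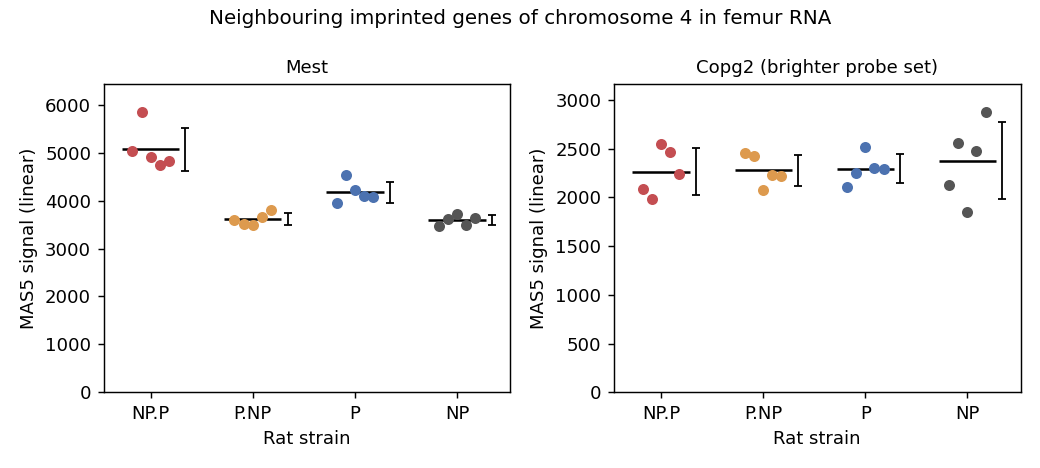
MAS5 signal (linear axis, from 0) of Mest (1371731_at) and of the Copg2 probe set 1389031_at on each of the 20 arrays. Points are single rats in NP.P, P.NP, P and NP, and bars show the mean and SD of 5 arrays. Mest averaged 5080 in NP.P femurs against 3593 in NP femurs, while the 4 Copg2 means lay between 2267 and 2377.

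Mest averaged 5080 ± 450 in NP.P femurs against 3593 ± 99.7 in NP femurs (SD, n = 5 each), a log2 difference of 0.50 ± 0.06 (SE) or 1.41-fold. It averaged 3616 ± 128 in P.NP femurs against 4175 ± 220 in P femurs (SD, n = 5 each), a log2 difference of -0.21 ± 0.06 (SE). These 2 comparisons share no array, and the strain with the P segment was the higher in both. Between the parents, P was above NP by 0.22 ± 0.06 (SE) on the log2 scale, a comparison that shares its NP arrays with the first and its P arrays with the second. Over both backgrounds the P segment went with a log2 difference of 0.35 ± 0.04 (SE). The difference was larger on the NP background than on the P background by 0.29 ± 0.09 (SE). No test is given for any of these because Mest was chosen with them in view. Among all tested probe sets, 3.28% had no overlap between NP.P and NP, 1.73% had none between P.NP and P, and 4.71% had none between P and NP. For the 10 and 10 arrays of the segment effect the share without overlap was 0.0483%.

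The Mest difference between NP.P and NP was the 25th largest in size among 384 tested probe sets of the QTL segment and the 676th among all 18625, so that 3.63% of probe sets differed by as much or more. For P.NP against P the rank in the segment was 92 of 384, and 19.1% of all probe sets differed by as much. Mest was therefore a moderate difference by size in both comparisons. It was measured with little scatter. Its within-strain SD was 0.08 on the log2 scale, where the median of all tested probe sets was 0.20, and 2.6% of them had a smaller one. The other tested members had SDs of 0.13 to 0.39.

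The contrast between backgrounds is orthogonal to the segment effect. It is not orthogonal to NP.P against NP or to P against NP, with which in view Mest was chosen. It is therefore also described for Mest without a test. The 10 P.NP and P femurs averaged 3896 and the 10 NP.P and NP femurs 4336, a log2 difference of -0.14 ± 0.04 (SE). In this contrast 22.5% of all tested probe sets were called. The average did not hold for each segment. With the P segment the mean was 4175 in P and 5080 in NP.P femurs, while with the NP segment it was 3616 in P.NP and 3593 in NP femurs, and P itself was above NP. The values of the 10 and 10 arrays overlapped, and the highest 5 were the NP.P animals.

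Copg2 encodes the gamma-2 subunit of the coatomer, the coat of vesicles that move between the Golgi and the endoplasmic reticulum, and is imprinted in mice. RefSeq places its end 1166 bases from the end of Mest, with both genes running towards each other. The probe set 1389031_at read 2091, 1987, 2549, 2465 and 2240 in NP.P femurs and 2455, 2422, 2072, 2233 and 2217 in P.NP femurs. It read 2112, 2251, 2520, 2302 and 2297 in P femurs and 2124, 2555, 1853, 2474 and 2881 in NP femurs. All 4 strains overlapped, and the lowest and the highest animal were both NP rats. The log2 difference of NP.P against NP was -0.06 ± 0.10 (SE), with a 95% interval of -0.27 to 0.16 and an adjusted p of 0.866. That of P.NP against P was -0.01 ± 0.10 (SE), with an interval of -0.23 to 0.20 and an adjusted p of 0.995. The Mest differences in the same comparisons were 0.50 and -0.21, with which in view Mest was chosen. Whether Copg2 differed from Mest was not tested. The difference between the parents was -0.04 ± 0.10 (SE), with an adjusted p of 0.90. A further Copg2 probe set, 1378583_at, was below the filter on average, with 36.7 to 170 over the 20 arrays, and followed the other one poorly across the arrays (r = -0.395, n = 20).

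The genes around Mest were looked at in RefSeq order, taking the 5 nearest on each side that have a probe set. Besides Copg2 these were Zc3hc1, Tmem209, Cpa4, Cpa1 and Cep41 on 1 side and Tsga13, Mkln1, Podxl and Plxna4 on the other. Of these 9, 7 were tested, and none was called for NP.P against NP, P.NP against P or P against NP in the limma fit, with 2, 0 and 1 at an unadjusted p under 0.05. Of all tested probe sets, 2.30% were called for NP.P against NP, 0.231% for P.NP against P and 5.36% for P against NP. The flanking gene Cep41, which codes for a centrosomal protein, averaged 831 in NP.P and 857 in NP femurs, a log2 difference of -0.04 ± 0.08 (SE, adjusted p = 0.867). Mkln1, which codes for muskelin, ranged from 2380 to 2718 in NP.P and from 2332 to 2738 in NP femurs. Podxl, which codes for the sialomucin podocalyxin, was 0.52 ± 0.17 (SE) above NP in NP.P femurs on the log2 scale, with an adjusted p of 0.153. Plxna4, a semaphorin receptor gene, had -0.91 ± 0.40 (SE) with an adjusted p of 0.339. The NP.P and NP values of Cep41, Mkln1 and Podxl overlapped. Cpa4 and Tsga13 were below the signal filter. Between backgrounds, where 22.5% of all tested probe sets were called, 2 of the 7 were lower on the P background, Tmem209 by -0.27 ± 0.06 (SE, adjusted p = 0.00479) and Podxl by -0.45 ± 0.12 (SE, adjusted p = 0.0148). The probe sets of Cep41 disagreed here, with -0.00015 (adjusted p = 0.999) at the brightest and -0.31 ± 0.11 (SE, adjusted p = 0.0667) at another, which was called lower.

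**Figure D2:**
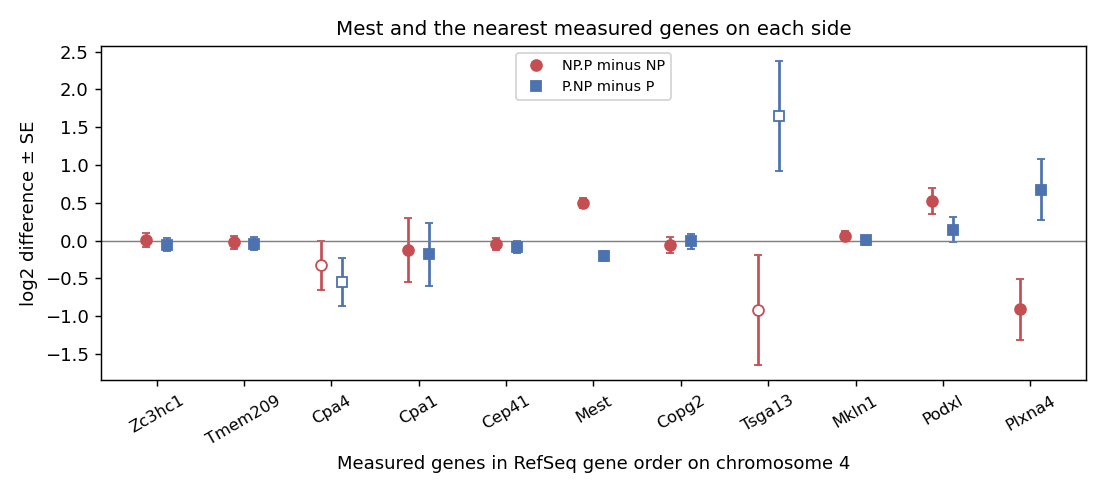
Log2 difference with SE (y axis) of Mest, Copg2 and the other neighbouring genes of chromosome 4 in RefSeq gene order (x axis), for NP.P against NP and for P.NP against P. Open symbols are probe sets below the signal filter, which were not tested. Mest is at 0.50 and -0.21, and the flanking genes Cep41 and Copg2 are at -0.04 and -0.06 for NP.P against NP.

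Of the other members, Sgce and Peg10 lie on chromosome 4 but outside the segment, Peg3, Plagl1 and Cdkn1c on chromosome 1, Dlk1 on chromosome 6 and Grb10 on chromosome 14. Apart from Mest, 7 member probe sets were tested, Copg2 included. For NP.P against NP, 1 of the 7 was called higher and none lower, where 0.816% of all tested probe sets were called higher and 2.30% in either direction, and 6 of the 7 differences were positive. Their median log2 difference was 0.22, with -0.01 over all tested probe sets. Of the 7, 2 are probe sets of Grb10, and the members were chosen with earlier results of these data known. Whether the members differ from all probe sets was not tested. For P.NP against P none was called (1 at an unadjusted p under 0.05), where 0.231% of all tested probe sets were called. For P against NP none was called (2 at an unadjusted p under 0.05), where 5.36% of all were called. The segment effect and its interaction with background were also called in none (1 and 2 at an unadjusted p under 0.05), where 0.886% and 0.317% of all probe sets were called. Across the 4 strains, the F test called 1 of the 7, against 18.2% of all.

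The member called was Grb10, which encodes an adaptor that binds the insulin and insulin-like growth factor receptors and restrains growth. It is expressed from the maternal copy in most mouse tissues. The probe set 1397211_at read 2165, 1993, 2195, 2216 and 1684 in NP.P femurs against 1273, 1343, 1514, 1532 and 1658 in NP femurs. Every NP.P animal was above every NP animal, though the lowest NP.P value of 1684 was close to the highest NP value of 1658. The means were 2051 ± 223 in NP.P and 1464 ± 155 in NP femurs (SD, n = 5 each), a log2 difference of 0.49 ± 0.10 (SE, adjusted p = 0.0311). In P.NP femurs the same probe set read 1960, 1547, 1649, 1932 and 1693, against 1559, 1639, 1930, 1871 and 2057 in P femurs. These values overlapped, with a log2 difference of -0.04 ± 0.10 (SE) and an adjusted p of 0.974. P was above NP by 0.31 ± 0.10 (SE), with an adjusted p of 0.120. NP femurs were therefore the low group for this probe set, and the F test over strains was passed (adjusted p = 0.0194). The call for NP.P against NP was lost when only these 2 strains were fitted (adjusted p = 0.138) and with the methods' t-test, in which the lowest adjusted p of the 7 member probe sets was 0.213.

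Neither of the other Grb10 probe sets followed this pattern in full. The brightest, 1371517_at, averaged 9459 ± 802 in NP.P and 9230 ± 806 in P.NP femurs, and 7970 ± 757 in P and 8158 ± 820 in NP femurs (SD, n = 5 each). Both congenic strains were thus above both parents on average. The log2 difference was 0.22 ± 0.09 (SE) for NP.P against NP (adjusted p = 0.284) and 0.21 ± 0.09 (SE) for P.NP against P (adjusted p = 0.574). The segment effect differed between the backgrounds by 0.43 ± 0.125 (SE), with an adjusted p of 0.224. For 1397211_at that value was similar, at 0.44 ± 0.14 (SE), with an adjusted p of 0.299. NP.P was thus above NP on average at both, and they parted mainly in P.NP against P and in P against NP. The dimmest, 1394610_at, ranged from 76.5 to 203 and was not tested. Across the 20 arrays the 3 probe sets correlated at r = 0.35, 0.229 and 0.013, so a statement on Grb10 as a gene depends on the probe set read. Which transcripts each one detects was not analysed here.

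Cdkn1c encodes p57, an inhibitor of cyclin-dependent kinases that is expressed from the maternal copy and is needed for growth-plate chondrocytes to leave the cell cycle in mice. Its signal was 10814, 11016, 10529, 10977 and 12138 in NP.P femurs against 7406, 10106, 9190, 9536 and 9715 in NP femurs. The 2 strains did not overlap, as was the case for 1.32% of all tested probe sets with NP.P on top. The averages were 11095 ± 614 in NP.P and 9191 ± 1051 in NP femurs (SD, n = 5 each), and the log2 difference of 0.28 ± 0.14 (SE) was not called (adjusted p = 0.394). P.NP femurs had 8520, 8824, 11012, 7050 and 9049, and P femurs had 6897, 6635, 10912, 9953 and 9384. These 2 strains spread over the whole range of the NP animals and beyond, with a log2 difference of 0.04 ± 0.14 (SE, adjusted p = 0.989). The lowest P animal was P replicate 2, and without it the difference of P.NP against P was -0.06 and that of P against NP was 0.0029, with neither called (adjusted p = 0.971 and 0.994). On the P background Cdkn1c averaged 8824 against 10143 on the NP background, a log2 difference of -0.21 ± 0.10 (SE) with an adjusted p of 0.146.

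Plagl1 and Dlk1 are paternally expressed. Plagl1 encodes a zinc finger transcription factor, also called Zac1, which acts on other imprinted genes in mice. Its mean signal was 2414 ± 612 in NP.P, 2688 ± 701 in P.NP, 2404 ± 535 in P and 1903 ± 514 in NP femurs (SD, n = 5 each). The spread within strains was wide, with an SD of 0.39 on the log2 scale, larger than in 87.2% of tested probe sets. The log2 differences were 0.36 ± 0.23 (SE) for NP.P against NP (adjusted p = 0.559), 0.16 ± 0.23 for P.NP against P (adjusted p = 0.954) and 0.35 ± 0.23 for P against NP (adjusted p = 0.493). The 95% interval for NP.P against NP was wide, from -0.13 to 0.84, and held 0. P replicate 2 was again the lowest P animal, at 1466, and without it the differences were -0.01 for P.NP against P and 0.52 for P against NP, still not called (adjusted p = 0.996 and 0.287).

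Dlk1 encodes a transmembrane protein of the Notch ligand family, also called preadipocyte factor 1, which holds back the maturation of fat cell precursors. It ranged from 384 to 617 in NP.P and from 378 to 521 in P.NP femurs. It ranged from 394 to 590 in P and from 386 to 564 in NP femurs. The strains overlapped throughout, and the means were 527 ± 93.7, 478 ± 57.1, 511 ± 79.4 and 462 ± 66.1 (SD, n = 5 each) in NP.P, P.NP, P and NP. The log2 difference of NP.P against NP was 0.18 ± 0.14 (SE, adjusted p = 0.641), with a 95% interval of -0.11 to 0.47. Between backgrounds it was 0.0059 ± 0.10 (SE, adjusted p = 0.978).

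Sgce and Peg10 form a pair of paternally expressed genes that start next to each other. Sgce encodes epsilon-sarcoglycan, a membrane protein of the dystrophin-associated complex. Its signal averaged 966 ± 78.5 in NP.P, 1053 ± 67.2 in P.NP, 1123 ± 99.2 in P and 957 ± 102 in NP femurs (SD, n = 5 each). Both strains on the P background had higher means than both strains on the NP background. The 10 P.NP and P femurs averaged 1088 and the 10 NP.P and NP femurs 961, a log2 difference of 0.18 ± 0.06 (SE, adjusted p = 0.04998). It was the 1 call among the 7 probe sets in this contrast, in which 11.1% of all tested probe sets were called higher and 22.5% in either direction. The call was lost without the filter on low signal (adjusted p = 0.101) and after quantile normalization (adjusted p = 0.114). The difference of NP.P against NP was 0.02 ± 0.09 (SE, adjusted p = 0.962) and that of P against NP was 0.23 ± 0.09 (SE, adjusted p = 0.168).

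Peg10 derives from a retrotransposon and is needed for the placenta in mice. Its only probe set ranged from 5.28 to 161 over the 20 arrays, below the filter value of 169.7 on every array, and was not tested. The values scattered widely within strains, from 19.9 to 126 in NP.P, from 10.2 to 78.1 in P.NP, from 12.4 to 150 in P and from 5.28 to 161 in NP femurs. No order of strains can be read from them.

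**Figure D3:**
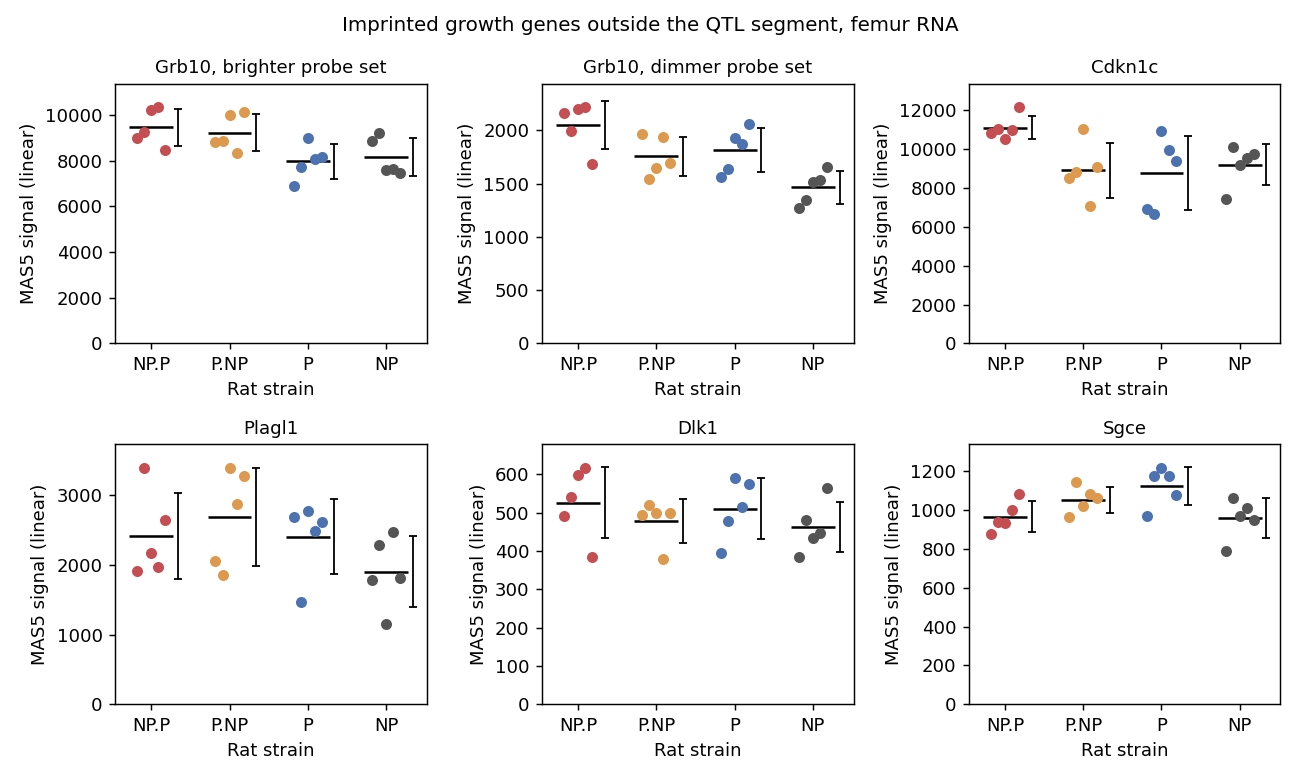
MAS5 signal (linear axes, each from 0) of the member probe sets outside the QTL segment that passed the signal filter, with 1 point per rat in NP.P, P.NP, P and NP and bars for the mean and SD of 5 arrays. All NP.P animals lie above all NP animals for Grb10 1397211_at, labelled dimmer (1684 to 2216 against 1273 to 1658) and for Cdkn1c (10529 to 12138 against 7406 to 10106), and NP.P and NP overlap in the other panels.

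**Figure D4:**
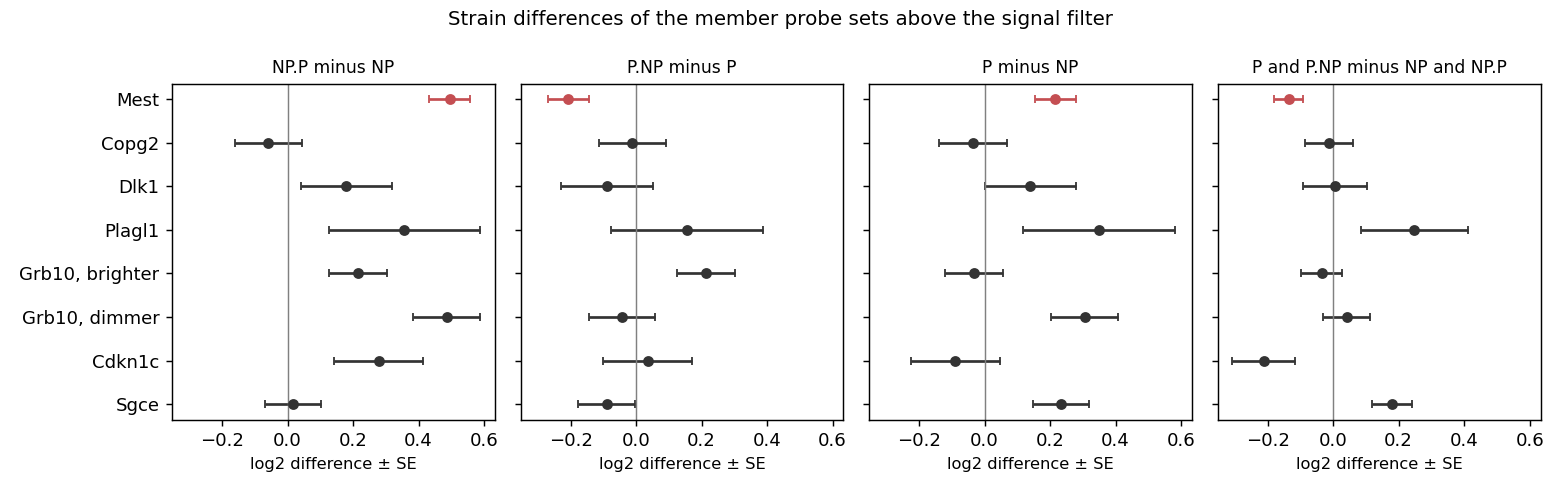
Log2 differences with SE (x axis) of the 8 member probe sets above the signal filter. The comparisons are NP.P against NP, P.NP against P, P against NP and the P against the NP background. The Grb10 probe sets 1371517_at and 1397211_at are labelled brighter and dimmer. Mest lies at 0.50, -0.21, 0.22 and -0.14, and Grb10 1397211_at lies at 0.49 for NP.P against NP.

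Cell type markers were read beside these comparisons. Of all tested probe sets, 2.30% were called for NP.P against NP (0.816% higher) and 22.5% between backgrounds (11.1% higher). Of the 11 listed erythroid markers, 9 were measured, and all 9 passed the filter. Their log2 differences of NP.P against NP were positive in 9 of 9, with a median of 0.21 and 2 called higher. Their summed signal was 238100 to 267300 per array in NP.P against 194100 to 239800 in NP femurs, with 193100 to 214500 in P.NP and 192300 to 231400 in P femurs. Adipocyte markers had 2 of 7 called higher, with summed signals of 30810 to 37410 in NP.P against 25490 to 33380 in NP femurs. Of the 6 listed B lymphoid markers only 2 were measured. Both were called lower, with summed signals of 3616 to 5670 in NP.P against 5184 to 7408 in NP femurs. Of the 6 listed granulocyte markers 4 were measured, and 1 of the 4 was called lower. The osteoblast, cartilage, fibroblast, endothelial, macrophage and skeletal muscle markers had no call between NP.P and NP. Skeletal muscle markers had a positive difference in 9 of 10 (median 0.16) and cartilage markers in 8 of 9 (median 0.11). For P.NP against P no marker was called, where 0.231% of all tested probe sets were called. The difference was positive in 1 of 9 erythroid (median -0.10), 0 of 4 granulocyte (median -0.17) and 0 of 2 B lymphoid markers (median -0.09). It was positive in 9 of 9 cartilage (median 0.33), 9 of 9 fibroblast (median 0.13) and 6 of 6 macrophage markers (median 0.15). In the contrast of the P against the NP background, 8 of 9 erythroid markers, 3 of 7 adipocyte markers, 2 of 6 macrophage markers, 1 of 4 granulocyte markers and 1 of 5 endothelial markers were called lower. In the same contrast 3 of 9 fibroblast markers, 2 of 10 osteoblast markers, 2 of 5 endothelial markers and 1 each of the adipocyte, macrophage and B lymphoid markers were called higher, as Sgce was. All 9 fibroblast markers had a positive difference, with a median of 0.10, and their summed signal was 129300 to 148500 in P.NP and 124500 to 139700 in P femurs, against 117400 to 128300 in NP.P and 116700 to 145600 in NP femurs. Across the 20 arrays, which fall into 4 strains, the mean erythroid score correlated with Mest at r = 0.658 and with Cdkn1c at r = 0.726. After the strain means were taken out, r was 0.076 for Mest and 0.625 for Cdkn1c. Mest also had r = -0.671 with the B lymphoid score, a mean of only 2 markers (-0.203 within strains), and 0.551 with the adipocyte score (0.275 within strains). Cdkn1c had 0.618 with the adipocyte score (0.419 within strains) and 0.52 with the cartilage score (0.504 within strains). The brightest Grb10 probe set had -0.61 with the B lymphoid score (-0.443 within strains) and 0.455 with the skeletal muscle score (0.504 within strains). Sgce had 0.473 with the skeletal muscle score (0.493 within strains) and 0.38 with the fibroblast score (0.124 within strains). It had -0.557 with the granulocyte score (-0.022 within strains) and -0.49 with the macrophage score (-0.248 within strains). For Mest the values with the erythroid, B lymphoid and adipocyte scores were closer to 0 within strains than over all arrays. Other scores went the other way. Mest had r = -0.295 with the fibroblast score (0.347 within strains) and 0.173 with the granulocyte score (-0.304 within strains). With the cartilage score it had 0.011 (-0.223 within strains). Values within strains do not address the differences between strains. The part of these cell types in the strain differences of Mest, Grb10, Cdkn1c and Sgce was not tested.

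The genes most like Mest over the 20 arrays were sought among 14135 tested probe sets with 1 gene symbol other than Mest. The 6 with the highest r on log2 signals were Akr1b8 (0.876), Tmem140 (0.875), Nt5c3a (0.854), Slc43a1 (0.846), Otub2 (0.843) and Xpo7 (0.833). The first 3 lie on chromosome 4, and the others on chromosomes 3, 6 and 15. Tmem140, a membrane protein gene, averaged 1821 ± 164 in NP.P, 926 ± 63.1 in P.NP, 1333 ± 93.7 in P and 911 ± 146 in NP femurs (SD, n = 5 each), in the same order as Mest by its highest and second strain. The 4 with the lowest r were Gimap5 (-0.866), Ptprcap (-0.822), Gimap6 (-0.82) and Npas2 (-0.803), and Gimap5, a GTPase gene of lymphocytes on chromosome 4, averaged 777 ± 76.4 in NP.P against 1210 ± 107 in NP femurs (SD, n = 5 each). After the strain means were taken out, r for these 10 genes lay between -0.433 and 0.379, and none of the 6 remained among the 6 highest. After quantile normalization 4 of the 6 did. The likeness is thus one of strain means, shared by 20 arrays in 4 groups. Among the members, Grb10 1397211_at had the highest r with Mest (0.631, or 0.045 within strains), and Copg2 had -0.186 (-0.281 within strains).

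Other imprinted genes were taken from a list of 48 known as imprinted in mice, of which 40 had a probe set and 31 were tested. For NP.P against NP, 1 of the 31 (3.23%) was called, where 2.30% of all tested probe sets were called. An unadjusted p under 0.05 was seen in 8, which cannot be set against the 2.30%, a share at another threshold. The called gene was Igf2, the paternally expressed insulin-like growth factor 2. Its signal was 15066, 20024, 20674, 21652 and 17423 in NP.P femurs against 11152, 14825, 10355, 10080 and 9729 in NP femurs. All NP.P animals were above all NP animals, by a small margin between 15066 and 14825. The log2 difference was 0.76 ± 0.16 (SE, adjusted p = 0.0321), and the call was lost without NP.P replicate 4 (adjusted p = 0.101). P.NP femurs averaged 14193 ± 1514 and P femurs 13236 ± 3182 (SD, n = 5 each), with a log2 difference of 0.14 ± 0.16 (SE, adjusted p = 0.932). H19, the maternally expressed noncoding RNA next to Igf2, averaged 45942 ± 4026 in NP.P and 36234 ± 8889 in NP femurs (SD, n = 5 each), a log2 difference of 0.37 ± 0.14 (SE, adjusted p = 0.253), which was called only without NP replicate 2 (adjusted p = 0.0579). Meg3, the maternally expressed noncoding RNA of the Dlk1 region, differed by 0.42 ± 0.20 (SE, adjusted p = 0.383). Igf2r, which codes for the receptor that clears IGF2, differed by -0.10 (adjusted p = 0.806).

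No gene of the 31 was called for P.NP against P or for P against NP, with 2 and 1 at an unadjusted p under 0.05. Of all tested probe sets, 0.231% and 5.36% were called in these contrasts. Between backgrounds 4 of the 31 (12.9%) were called, all higher on the P background, where 22.5% of all tested probe sets were called. They were Blcap (0.24, adjusted p = 0.0167), Inpp5f (0.26, adjusted p = 0.0251), Ube3a (0.17, adjusted p = 0.0286) and Trappc9 (0.20, adjusted p = 0.0848) as log2 differences. Without NP replicate 2, 7 of the listed genes were called in this contrast. Whether the list differs from all probe sets was not tested. Of the 7 listed genes on chromosome 4 with a probe set, 5 were tested and none was called in any of these contrasts.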

How the data were processed

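RNA from the femurs of 20 rats, 5 from each of 4 strains, had been hybridised to 20 separate Affymetrix Rat Genome arrays, and strain and replicate number were taken from the sample labels. The deposited intensity values are linear MAS5 signals, already background-corrected and scaled between arrays by the authors, whose own analysis used another normalization (robust multichip average). Depth has no counterpart on arrays, and the number of arrays limits the precision. Signals under 1 were set to 1 (190 values), and log2 was taken. After removal of 57 control probe sets, 18625 of 31042 were kept, those whose mean log2 signal was not in the lowest 40% (signal 169.7).

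The 4 strain means were fitted with limma 3.58.1 in R 4.3.3 over all 20 arrays (16 residual and 2.78 prior degrees of freedom), as in the study's methods, with Benjamini-Hochberg adjustment over all tested probe sets and a false discovery rate of 10%. Contrasts were NP.P against NP, P.NP against P, P against NP, the P against the NP background, the P against the NP segment, and their interaction. The fit was tested on simulated data. Counts at an unadjusted p under 0.05 are given without the share of all tested probe sets under it, so they show no excess or lack. Probe sets were named by the platform annotation, in which 20826 had 1 gene symbol, 436 several and 9780 none, and only probe sets with 1 symbol were named. Gene order, distances between genes and promoter sequences came from RefSeq GRCr8, whose build is not that of the array design. The QTL segment was taken as all genes from Arf5 to Ppp4r2 in this order, both being genes the paper lists in the region. The paper itself bounds the segment by flanking markers, so the sets of probe sets can differ. Where a gene had several probe sets it was read at the one with the highest mean, and the others were given for the members.

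The text names all members, the 5 nearest genes on each side of Mest, the 6 genes with the highest and the 4 with the lowest r with Mest, and, among a list of other imprinted genes, those called together with Igf2, H19, Igf2r and Meg3. The members, this rule and the gene lists were chosen with earlier results of these data known. Alternatives were quantile normalization, dropping the filter or raising it to the 60th percentile, adding 21.7 to each signal, a mean-variance trend, a fit of 2 strains alone, a replicate block, a false discovery rate of 5%, the methods' t-test and leaving out each array.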

Additional observations from a re-analysis of the deposited data

Results flagged for a closer look

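In 44 sets of 5 arrays (11 member probe sets in 4 strains) the highest or lowest array was compared with its neighbour, and 4 stood apart by a gap of more than 0.71 of the range, where chance gives about 1 in 20. Mest in NP.P replicate 2 was the highest of its strain at 5860, with the next at 5046. Dlk1 in P.NP replicate 4 was the lowest at 378.1, with the next at 493.6. Plagl1 in P replicate 2 was the lowest at 1466, with the next at 2481, on the array that also had the low cartilage score of -1.76. The dimmest Grb10 probe set, 1394610_at, was the lowest in NP.P replicate 1 at 111, with the next at 180.5. Without NP.P replicate 2, the other NP.P values of Mest still lay above all NP, P and P.NP values.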

How the results depend on the processing

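The number of tested member probe sets called other than Mest changed as follows. For NP.P against NP it was 0 with the 2 strains fitted alone and 0 with the methods' t-test, in which 3 of the 7 had an unadjusted p under 0.05 and the lowest adjusted p was 0.213. That test called 10 of all 18625 probe sets. For P against NP it was 1 at the 60th percentile filter, 1 with the mean-variance trend and 1 with the replicate block. For the background contrast it was 0 without a filter and 0 after quantile normalization. For the F test it was 2 at the 60th percentile filter, 2 with the trend and 2 with the replicate block. The replicate block moved the background call of no member, and same-numbered arrays correlated at -0.089 to 0.333 over 30 pairs, 5 of them over 0.1. The main fit did not take the numbers as pairs. Replicate 2 had the lowest cartilage and the highest skeletal muscle score of its strain in P, NP and P.NP, but not in NP.P. Whether same-numbered arrays shared any handling was not tested. The block called Sgce for P against NP (adjusted p = 0.0707). Grb10 1397211_at was called for P against NP at the 60th percentile filter (adjusted p = 0.0813) and with the trend (adjusted p = 0.0905). The Dlk1 difference between backgrounds, 0.0059 as reported, was -0.019 after quantile normalization. Over all 37 single results and 280 alternative values other than leaving out an array, 270 kept direction and call, 6 lost the call, 3 gained it and 1 reversed. Quantile normalization called 2 of the other imprinted genes for NP.P against NP. The cause of these changes was not tested.

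Leaving out each array in turn gave counts of 1 to 1 for NP.P against NP, 0 to 0 for P.NP against P, 0 to 2 for P against NP, 1 to 2 for the background contrast and 1 to 2 for the F test. P against NP reached 2 without P replicate 1, and 1 without NP replicate 2, NP replicate 5 or NP.P replicate 5. The background contrast reached 2 without NP replicate 1, P replicate 3 or P.NP replicate 3, where Cdkn1c was added. The F test reached 2 without NP replicate 2, P replicate 1, P replicate 3 or NP.P replicate 5. Grb10 1397211_at kept its call for NP.P against NP each time (adjusted p 0.0176 to 0.0969), and Sgce its background call (0.0264 to 0.089). The log2 differences of Mest ranged from 0.44 to 0.52 for NP.P against NP, -0.23 to -0.18 for P.NP against P, 0.19 to 0.24 for P against NP and 0.32 to 0.36 for the segment. The other imprinted genes had 0 to 2 calls for NP.P against NP, 0 without NP.P replicate 4 and 2 without NP replicate 2, and 3 to 7 for the background contrast, 7 without NP replicate 2, and Trappc9 lost its call in 13 of 20. For P against NP, 1 was called without NP replicate 2. Differences near 0 changed sign among uncalled results, in the ranges -0.144 to 0.0148, -0.0407 to 0.0230, -0.121 to 0.0379 and -0.0547 to 0.0249 for Copg2 (NP.P against NP, P.NP against P, P against NP and background), -0.0486 to 0.0508 for Dlk1 (background), -0.0143 to 0.28 for Plagl1 (P.NP against P), -0.0778 to 0.0178 for Grb10 1371517_at (P against NP), -0.095 to 0.0049 for Grb10 1397211_at (P.NP against P), -0.0571 to 0.122 and -0.176 to 0.0029 for Cdkn1c (P.NP against P and P against NP) and -0.0499 to 0.0567 for Sgce (NP.P against NP).

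With 5 arrays a strain, the intervals printed beside the differences give the precision. The probe sets of Peg10 and the dimmest ones of Copg2 and Grb10 lay under the signal filter and were not tested. Grb10 probe sets disagreed in part, so each statement holds for its probe set. The median log2 difference of all probe sets moved by less than 0.1 under the filter, quantile, offset, trend and block settings.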
